A study of Homo sapiens with 6 samples.

Results

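The responses of CWR22Rv1 prostate cancer cells to 2 inhibitors of HSP70, VER155008 (VER) and apoptozole (APO), were compared directly with each other, gene by gene. Genes entered the comparison when their FPKM (fragments corrected for the length of the transcript and the depth of the library) was above 1 in at least 1 of the VER and APO libraries, which held for 14800 of the 60658 genes in the files, 12388 of them protein coding. The difference was log2(FPKM + 0.1) with VER minus that with APO, so a positive value is a higher level with VER. No DMSO library entered the difference or the choice of genes. The DMSO level is given as the background measured in the same way.

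CWR22Rv1 cells, an established line of castration-resistant prostate carcinoma, received 10 µM APO, 10 µM VER or DMSO vehicle for 48 h, in medium without enzalutamide. C4-2B MDVR cells, an enzalutamide-resistant line kept in medium with 20 µM enzalutamide, were treated in the same way, and their labels call the source LNCaP-C4-2B and parental. Each of the 6 conditions was 1 library, so replicate error is unknown and p-values are left out. Each line is 1 culture per condition, each inhibitor was used at 1 dose and 1 time, and in bulk RNA fewer cells of a type and less RNA per cell cannot be told apart.

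HSP70 proteins are ATP-driven chaperones that hold and refold client proteins, with J-domain proteins feeding clients in and nucleotide exchange factors releasing them. Steroid receptors pass through HSP70 and HSP90 on the way to a hormone-binding form. Inhibitors of the HSP70 ATPase interrupt this cycle, and cells are known to answer protein folding stress with heat shock genes under HSF1 and with the integrated stress response under ATF4.

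The 10 markers of prostate luminal epithelium were all among the genes compared, with FOXA1 at 230 FPKM in DMSO, 193 with APO and 207 with VER. Of 6 basal markers 2 were compared (DST and ITGA6), and KRT5 and TP63 were listed at 0 in all 3 CWR22Rv1 libraries. None of 6 endothelial and 10 leukocyte markers passed the filter. Of 10 stromal markers 4 passed, among them LUM at 23.9 FPKM in DMSO, 13.1 with APO and 26.2 with VER. The FPKM of all genes summed to 701377 in DMSO, 647172 with APO and 733529 with VER, of which the mitochondrial chromosome took 25.7%, 10.4% and 25.7%. The differences were therefore also computed at an equal sum without these genes.

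Of the 14800 genes, 1661 were more than 2-fold higher with VER (11.2%) and 1067 were more than 2-fold higher with APO (7.21%). More than 4-fold were 420 and 235 genes. The median difference over all genes compared was -0.03, with quartiles of -0.45 and 0.47, and the levels with VER and APO had a Spearman correlation of 0.93 across genes, which are not independent replicates. Low levels gave more of these genes: among 7253 genes that averaged less than 10 FPKM, 27.0% differed more than 2-fold, against 10.0% of 6639 genes from 10 to 100 FPKM and 11.8% of 908 genes above 100 FPKM. Of the genes past 2-fold, 119 were listed at 0 with APO and 68 with VER. At the filter itself, 258 genes had their higher value between 1 and 1.1 FPKM and 293 lay just outside, between 0.9 and 1 FPKM. When the libraries were scaled to the same sum (TPM), the split turned from 60.9% of the genes past 2-fold being higher with VER to 44.6%, since the median over all genes moved to -0.21. Scaling to the same sum without the mitochondrial chromosome gave 67.6%. A difference of about 2-fold in a single gene therefore rests on the scaling, and gene groups are read below against the median of all genes.

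**Figure D1:**
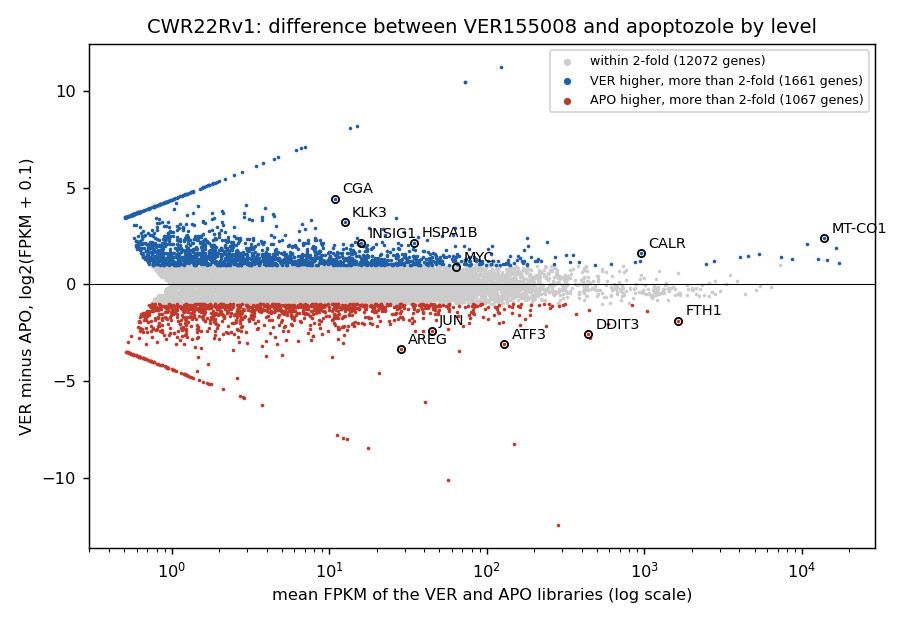
Each point is a gene, with the mean FPKM of the VER and APO libraries of CWR22Rv1 on a log scale (x axis) and VER minus APO as log2(FPKM + 0.1) (y axis). Blue points are the 1661 genes more than 2-fold higher with VER, red points the 1067 genes more than 2-fold higher with APO, and the straight lines of points at the left are genes listed at or near 0 in 1 of the libraries.

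The level in DMSO was nearer to that with VER than to that with APO on the log scale for 65.2% of all genes compared. This share was 73.2% of the genes higher with VER and 82.3% of the genes higher with APO. Of the 1661 genes higher with VER, DMSO lay between the inhibitors for 938, above both for 602 and below both for 121. Of the 1067 genes higher with APO, DMSO lay between for 569, below both for 445 and above both for 53. The DMSO library is shared by these counts, which describe where it lies and do not test either inhibitor.

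Genes on either side differed in composition. Protein-coding genes made up 1016 of the 1661 genes higher with VER (61.2%), 760 of the 1067 higher with APO (71.2%) and 87.9% of the 12072 genes within 2-fold. Among protein-coding genes the median GC content of the longest transcript was 55.3% for those higher with VER, 46.6% for those higher with APO and 47.9% for those within 2-fold. The median span of these genes on the genome was 22.3, 53.5 and 32.6 kb. Whether GC content or length plays a part in the differences was not tested, beyond a correction that subtracted the median of genes of similar GC content and left 1642 and 991 genes past 2-fold.

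The protein-coding genes furthest apart were read from those above 10 FPKM in at least 1 library and not listed at 0. CGA, the alpha subunit shared by the glycoprotein hormones, was at 3.07 FPKM in DMSO, 0.87 with APO and 21 with VER, and led the genes higher with VER with a log2 difference of 4.44. It was followed by DERL3, a factor of endoplasmic reticulum (ER) associated degradation, at 29.1, 4.42 and 48.6 FPKM, with a log2 difference of 3.43. DERL3 shares 77.0% of its exonic bases with SMARCB1 on the other strand, and reads of such partners can be told apart only if strand was used in counting, which is not stated. GJB1, a gap junction protein, was at 13.4, 1.29 and 14 FPKM, with a log2 difference of 3.34. All 15 genes at this end had a DMSO level above that with APO, and for 13 of the 15 DMSO was nearer to VER.

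CHRNA2, a nicotinic receptor subunit, was at 36.5 FPKM in DMSO, 4.07 with APO and 31.7 with VER. UGT8, which makes galactosylceramide, was at 43.0, 5.2 and 38.5 FPKM, and LPCAT1, which remodels phosphatidylcholine, was at 33.8, 6.45 and 38.6 FPKM. In these 3 genes the VER library stayed close to DMSO while the APO library stood apart, with log2 differences of 2.93, 2.86 and 2.56. MUC13, a membrane mucin, was at 18.3 FPKM in DMSO, 11.3 with APO and 62.2 with VER, so there DMSO was nearer to APO.

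At the other end, AC120057.2 on chromosome 17 was at 59.1 FPKM in DMSO, 79.5 with APO and 1.06 with VER. It shares 691 of its 776 exonic bases with GABARAP and 85 with CTDNEP1 on the same strand, so its value depends on how fragments were divided and is uncertain. The same holds for FMC1-LUC7L2, which shares 82.9% of its bases with LUC7L2. Among genes without such partners, DHRS2, a short-chain dehydrogenase, was at 42.8 FPKM in DMSO, 122 with APO and 11.3 with VER, a log2 difference of -3.43. AREG, the EGF receptor ligand amphiregulin, was at 1.24, 51.8 and 5 FPKM, a log2 difference of -3.35. TSLP, an epithelial cytokine, was at 0.873, 13.5 and 1.76 FPKM.

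The ETS factors ETV1 and ETV5 were also among the 15 genes furthest to the APO side. ETV1 was at 6.85 FPKM in DMSO, 21.8 with APO and 2.60 with VER, and ETV5 at 5.02, 19.8 and 2.71 FPKM. In both genes DMSO lay between the inhibitors. All 15 genes had a DMSO level below that with APO, and for 13 of the 15 DMSO was nearer to VER. In the C4-2B MDVR line, whose libraries are separate, 11 of these 15 genes were more than 2-fold higher with APO (against 5.54% of all genes compared). None of the 15 was more than 2-fold higher with VER there (against 4.3%). Of the 15 genes at the VER end 6 were more than 2-fold higher with VER there too (against 4.3%) and none the other way (against 5.54%). No filter on level in C4-2B MDVR was applied to these counts, and some of the genes were low there. AREG was at 0.853 FPKM with APO and 0.049 with VER, and CGA was listed at 0 with both.

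**Figure D2:**
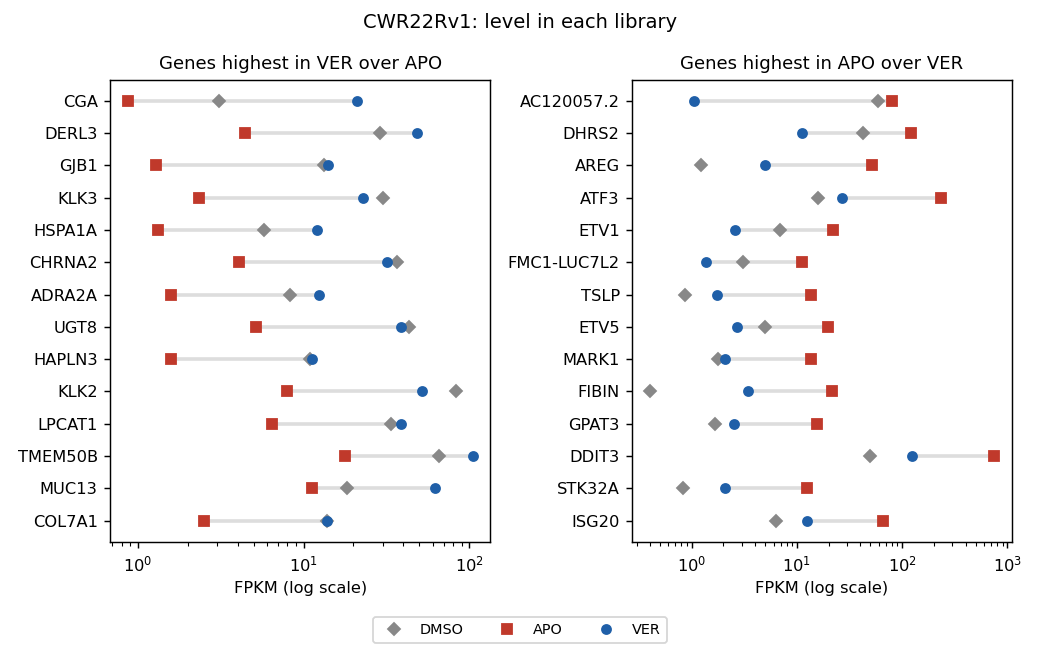
FPKM (x axis, log scale) in the DMSO (grey diamonds), APO (red squares) and VER (blue circles) libraries of CWR22Rv1 for protein-coding genes furthest to either side (y axis), 1 gene a side not being shown. The APO library is the outermost on the left for the VER-higher genes and on the right for the APO-higher genes, and DMSO lies nearer to VER for most genes in each panel.

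Androgen-induced genes were higher with VER. Of 35 listed genes 32 were compared, and their median difference was 0.67, beside -0.03 for all genes. More than 2-fold higher with VER were 14 of the 32 (against 11.2% of all genes compared) and higher with APO 1 of 32 (against 7.21%), which was TRPM8 at 1.26 FPKM with APO and listed at 0 in DMSO and with VER. KLK3, the gene of prostate-specific antigen (ENSG00000142515, GRCh38 chromosome 19, 50854915 to 50860764, plus strand), was at 30.2 FPKM in DMSO, 2.33 with APO and 22.7 with VER, 9.38-fold higher with VER. Its neighbour KLK2, another kallikrein protease (ENSG00000167751), was at 83.4, 7.91 and 52.0 FPKM, 6.50-fold higher with VER. In both genes VER was below DMSO and APO far below it.

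SLC45A3, a membrane transporter of prostate epithelium, was at 88.2 FPKM in DMSO, 14 with APO and 68.9 with VER, a log2 difference of 2.30. TMPRSS2, a serine protease, was at 15.3, 6.40 and 19.8 FPKM, a log2 difference of 1.61, and the kallikrein KLK4 was at 201, 90.5 and 234 FPKM, a log2 difference of 1.37. FKBP5, a co-chaperone of steroid receptors, stood closer together at 111, 56.0 and 82.9 FPKM, and its log2 difference of 0.57 lay within 2-fold. NR3C1, the glucocorticoid receptor, was at 3.53 FPKM in DMSO, 10.3 with APO and 5.57 with VER, a log2 difference of -0.87. AKT1, the kinase, was at 99.4, 54.3 and 69.9 FPKM. In C4-2B MDVR the same androgen-induced genes had a median of 0.49, with 10 more than 2-fold higher with VER and 0 with APO. KLK3 there was at 77.8, 8.84 and 24.4 FPKM in DMSO, APO and VER, and KLK2 at 229, 15.9 and 46.5 FPKM.

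The proximal promoters of KLK3 and KLK2 hold a known androgen response element, and the windows are shown because these 2 genes differ most among the kallikreins named here. Sequences are from RefSeq promoters on GRCh38.p14, plus strand, with the 15 bases of the element in capitals. The windows are chr19:50854735-50854774 for KLK3 and chr19:50873253-50873292 for KLK2, and the capitals begin 170 and 176 bases before the RefSeq start.
KLK3: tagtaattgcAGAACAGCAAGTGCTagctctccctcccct
KLK2: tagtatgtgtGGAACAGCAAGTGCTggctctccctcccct
Of the 40 bases 35 are identical. Counted from 1 at the 5′ end of the window, with the KLK3 base first, the differences are A6T, T7G, C10T, A11G and A26G. The hexamer AGAACA, a core of this element, searched on both strands of the 300 bases around each start (250 before to 50 after), occurs in 14.9% of all 27305 RefSeq promoters and in 1 of the 11 promoters found for the 14 androgen-induced genes higher with VER.

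The HSP70 family had members on either side. Of 16 listed genes of the HSP70 family 13 were compared, with a median difference of -0.01. Past 2-fold, 5 were higher with VER (38.5%, against 11.2% of all genes) and 1 with APO (7.69%, near the 7.21% of all genes). HSPA1A (ENSG00000204389) was at 5.79 FPKM in DMSO, 1.32 with APO and 12.1 with VER. HSPA1B (ENSG00000204388) was at 39.2, 12.5 and 56.6 FPKM. These inducible cytosolic genes are nearly identical, so the division of reads between them is uncertain, and their sum was 45.0 FPKM in DMSO, 13.8 with APO and 68.7 with VER, a log2 difference of 2.30. HSPA8, the constitutive cytosolic chaperone, was at 713 FPKM in DMSO, 545 with APO and 1210 with VER. For the inducible genes and HSPA8 the order was APO, DMSO, VER from low to high.

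HSPH1, an HSP110 exchange factor, was at 25.7 FPKM in DMSO, 11 with APO and 23.1 with VER, and HSPA1L at 0.825, 0.486 and 1.14 FPKM. HSPA1L is counted among the genes past 2-fold, but it is low and passed the filter through the VER library alone. The mitochondrial member HSPA9 went the other way, at 151 FPKM in DMSO, 355 with APO and 151 with VER, a log2 difference of -1.23. The ER members HSPA5 and HYOU1 were within 2-fold, HSPA5 at 437, 727 and 495 FPKM and HYOU1 at 114, 210 and 133 FPKM. In C4-2B MDVR cells the sum of HSPA1A and HSPA1B was 62.2 FPKM in DMSO, 13.6 with APO and 33.1 with VER, so VER lay above APO as in CWR22Rv1 but below DMSO. HSPA8 was on the other side there, at 1332 FPKM in DMSO, 1399 with APO and 719 with VER.

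Co-chaperones differed less. Of 20 listed, all were compared, the median was -0.28, and BAG2, an exchange factor that inhibits STUB1, was the 1 gene past 2-fold, at 2.82 FPKM in DMSO, 5.46 with APO and 2.57 with VER. With a pseudocount of 1 its log2 difference was -0.86. STUB1, the ubiquitin ligase that binds HSP70, was at 141, 145 and 123 FPKM, a log2 difference of -0.24. The J-domain gene DNAJB1 was at 31.9, 32.9 and 33.8 FPKM and the exchange factor BAG3 at 14, 12.7 and 12.8 FPKM, with log2 differences of 0.04 and 0.01. Among 21 heat shock genes of HSF1 the median was 0.38. The 4 genes past 2-fold, all higher with VER (19%, against 11.2% of all genes), were HSPA1A, HSPA1B, HSPA8 and HSPH1. HSP90AA1, the inducible HSP90, was at 452 FPKM in DMSO, 315 with APO and 490 with VER, a log2 difference of 0.64.

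A heat shock element, the binding motif of HSF1, was searched as GAANNTTC or TTCNNGAA, which read the same on both strands and can overlap each other. It occurs in 13.7% of all RefSeq promoters and in 4 of the 5 promoters of HSP70 family genes higher with VER. The windows show the inducible pair and a match in HSPA8, with the element in capitals. They lie at chr6:31815417-31815464 (plus strand), chr6:31827613-31827660 (plus strand) and chr11:123062159-123062206 (minus strand), and the capitals begin 106, 105 and 50 bases before the start. HSPA1L, read from the other strand, has the same stretch as HSPA1A, so 2 of the 4 promoters share 1 match.
HSPA1A: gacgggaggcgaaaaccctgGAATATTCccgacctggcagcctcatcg
HSPA1B: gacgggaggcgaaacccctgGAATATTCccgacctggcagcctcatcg
HSPA8: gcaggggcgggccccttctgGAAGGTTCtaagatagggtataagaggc
The match describes letters in a window and is not evidence of binding.

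Genes of sterol and fatty acid synthesis were higher with VER. Of 24 cholesterol genes compared 23 had a positive difference, with a median of 0.99. Past 2-fold, 12 were higher with VER (50%, against 11.2% of all genes) and 0 with APO (against 7.21%). INSIG1, the sterol-sensing retention protein of the ER, was at 27.6 FPKM in DMSO, 5.86 with APO and 26.1 with VER, and SQLE, squalene epoxidase, at 20.4, 5.19 and 22.1 FPKM. In these genes DMSO was nearer to VER and APO stood apart.

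SREBF2, the factor that drives the pathway, was at 60.0 FPKM in DMSO, 28.8 with APO and 77.5 with VER. PMVK, phosphomevalonate kinase, was the 1 gene of the list with a negative difference, at 49.7, 58.0 and 53.4 FPKM. All 14 fatty acid genes were compared, with a median of 1.11 and 7 more than 2-fold higher with VER (50%, against 11.2% of all genes). FASN, fatty acid synthase, was at 110 FPKM in DMSO, 21.9 with APO and 65.7 with VER. SREBF1, the factor of fatty acid synthesis, was at 59.4, 6.31 and 22.1 FPKM and ELOVL6, an elongase, at 53.7, 11.6 and 42.6 FPKM, all with VER between APO and DMSO.

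In the C4-2B MDVR line the cholesterol genes had a median of 0.15 with none past 2-fold either way. The fatty acid genes had a median of 0.71, with 6 of 14 more than 2-fold higher with VER (against 4.3% of all genes compared). The difference between the lines was not tested, with 1 library a side. The CCAAT box (CCAAT, both strands), which nuclear factor Y binds, is in 35.7% of all promoters and in all 8 promoters found for the 12 cholesterol genes higher with VER. The sterol regulatory element TCACNCCAC was in 1 of the 8 and in 1.15% of all.

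Targets of ATF4, the factor of the integrated stress response, were higher with APO. Of 32 compared 27 had a negative difference, and the median was -0.81. Past 2-fold, 11 were higher with APO (34.4%, against 7.21% of all genes) and 1, ATF5, with VER (3.12%, against 11.2%). ATF3, a stress-induced repressor, was at 16.0 FPKM in DMSO, 232 with APO and 26.7 with VER, a log2 difference of -3.11. DDIT3, the pro-apoptotic factor CHOP, was at 49.3, 753 and 125 FPKM, a log2 difference of -2.59, and shares 27.2% of its exonic bases with the methionyl-tRNA synthetase gene on the other strand. PPP1R15A, the phosphatase subunit that reverses the block of translation, was at 10.1, 94.5 and 19.1 FPKM. TRIB3, a pseudokinase, was at 40.9, 387 and 85.7 FPKM. VER levels of these genes were above DMSO too, by far less than those with APO.

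ATF4 transcripts stood at 263 FPKM in DMSO, 595 with APO and 422 with VER, a log2 difference of -0.50. SLC7A5, SLC1A5 and SLC38A2, importers of amino acids, had log2 differences of 0.34, 0.13 and 0.11, so these targets lay on the VER side within 2-fold. GDF15, a secreted stress cytokine, was high with both inhibitors, at 41.0 FPKM in DMSO, 1401 with APO and 971 with VER. The 20 tRNA synthetases of the cytosol, many of them under ATF4, had a median of -0.53. WARS1, TARS1, SARS1 and AARS1 were more than 2-fold higher with APO (20%, against 7.21% of all genes). WARS1 was at 47.9, 164 and 68.2 FPKM. SARS1 was at 73.8, 311 and 152 FPKM, and its log2 difference of -1.03 was -0.97 at a median ratio of 1. In C4-2B MDVR the ATF4 targets had a median of -0.26. Of the 32, 4 were more than 2-fold higher with APO (against 5.54% of all genes compared) and 1 with VER (against 4.3%). ATF3 was at 7.19, 170 and 58.1 FPKM and DDIT3 at 18.5, 437 and 185 FPKM there.

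The C/EBP-ATF response element, which ATF4 binds as a partner of C/EBP proteins, was searched as TGATGNAA on both strands. It occurs in 3.67% of all promoters and in 3 of the 11 ATF4 targets higher with APO. The windows of CHAC1, which degrades glutathione, of AARS1 and of ATF3 are shown with the element in capitals, in the sense of the gene, so that TTGCATCA is the element on the other strand. They lie at chr15:40953242-40953289 (plus), chr16:70289666-70289713 (minus) and chr1:212565196-212565243 (plus).
CHAC1: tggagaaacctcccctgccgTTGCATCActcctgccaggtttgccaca
AARS1: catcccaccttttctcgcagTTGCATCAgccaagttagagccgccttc
ATF3: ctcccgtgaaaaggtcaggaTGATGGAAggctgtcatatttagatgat
CHAC1 was at 2.22 FPKM in DMSO, 30.8 with APO and 12.8 with VER, a log2 difference of -1.27. AARS1, alanyl-tRNA synthetase, was at 73.9, 220 and 108 FPKM, a log2 difference of -1.03.

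Chaperones and degradation factors of the ER were split. The 27 genes had a median of 0.34. Of these, 6 were more than 2-fold higher with VER (22.2%, against 11.2% of all genes) and 1 with APO (3.7%, against 7.21%). CALR, calreticulin, was at 1153 FPKM in DMSO, 474 with APO and 1441 with VER, a log2 difference of 1.60. HSP90B1, the ER HSP90, was at 1162, 555 and 1311 FPKM, a log2 difference of 1.24. CRELD2, a disulfide isomerase, was at 230, 74.2 and 292 FPKM, a log2 difference of 1.97. Transcripts of these luminal proteins were lower with APO than in DMSO. ERN1, the stress sensor IRE1, was the 1 gene past 2-fold the other way, at 4.07, 27.7 and 8.10 FPKM, and ATF6, another sensor, was at 8.48, 24.9 and 16.7 FPKM. XBP1, the factor that IRE1 splices, was at 114, 271 and 262 FPKM, nearly equal with either inhibitor. In C4-2B MDVR cells the list had a median of 0.05, but its place against DMSO differed. The list summed to 3885 FPKM in DMSO, 8374 with APO and 7322 with VER there, against 5823, 4515 and 7393 FPKM in CWR22Rv1. CRELD2 in C4-2B MDVR was at 79.9 FPKM in DMSO, 171 with APO and 198 with VER.

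AP-1 and immediate early genes, which follow MAP kinase signalling, had the lowest median of the lists, -1.02. Of 23 compared 13 were more than 2-fold higher with APO (56.5%, against 7.21% of all genes) and 0 with VER (against 11.2%). JUN was at 16.1 FPKM in DMSO, 75.2 with APO and 14.3 with VER, a log2 difference of -2.39. FOS was at 2.86, 14.4 and 2.91 FPKM and JUND at 66.4, 241 and 79.3 FPKM. The phosphatases DUSP6 and DUSP5, feedback inhibitors of ERK, were at 4.82, 19.3 and 3.79 FPKM and at 0.252, 2.17 and 0.270 FPKM. EGR1 was at 10.2, 21.7 and 4.15 FPKM. VER was below DMSO for JUN, DUSP6 and EGR1 and slightly above it for FOS, JUND and DUSP5. MYC, on the same list, was at 118, 44.8 and 83.0 FPKM, a log2 difference of 0.89. In the C4-2B MDVR line the list had a median of -0.25. Of the 23, 2 were past 2-fold to the APO side (against 5.54% of all genes compared) and 1, MYC, to the VER side (against 4.3%).

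Targets of NRF2, the factor of the oxidant response, had a median of -0.55. Past 2-fold, 8 of 24 were higher with APO (33.3%, against 7.21% of all genes) and 1 with VER (4.17%, against 11.2%). HMOX1, heme oxygenase, was at 3.89 FPKM in DMSO, 22.5 with APO and 5.45 with VER, a log2 difference of -2.03. FTH1, the ferritin heavy chain, was at 707, 2570 and 701 FPKM, a log2 difference of -1.87. AKR1C2, an aldo-keto reductase of steroids with near paralogs, was at 14.5, 45.6 and 13.1 FPKM. GCLC, the catalytic subunit of glutathione synthesis, and TKT, transketolase, lay on the other side with log2 differences of 0.50 and 0.72. HMOX1 and FTH1 were on the APO side in C4-2B MDVR cells as well, with log2 differences of -2.06 and -1.13.

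Autophagy genes had a median of -0.52. Past 2-fold, 8 of 27 were higher with APO (29.6%, against 7.21% of all genes) and 0 with VER (against 11.2%). MAP1LC3B, which coats the autophagosome, was at 21.8 FPKM in DMSO, 158 with APO and 45.2 with VER, a log2 difference of -1.80. SQSTM1, the cargo receptor p62, was at 73.9, 271 and 106 FPKM, a log2 difference of -1.35. Lysosomal genes had a median of 0.49 over 47 genes, with 9 more than 2-fold higher with VER (19.1%, against 11.2% of all genes). CTSA, a carboxypeptidase, was at 50.5, 28.7 and 71.3 FPKM, and GLA, alpha-galactosidase, at 46.7, 14.3 and 34.7 FPKM. In C4-2B MDVR the medians of these lists were -0.01 and -0.12.

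**Figure D3:**
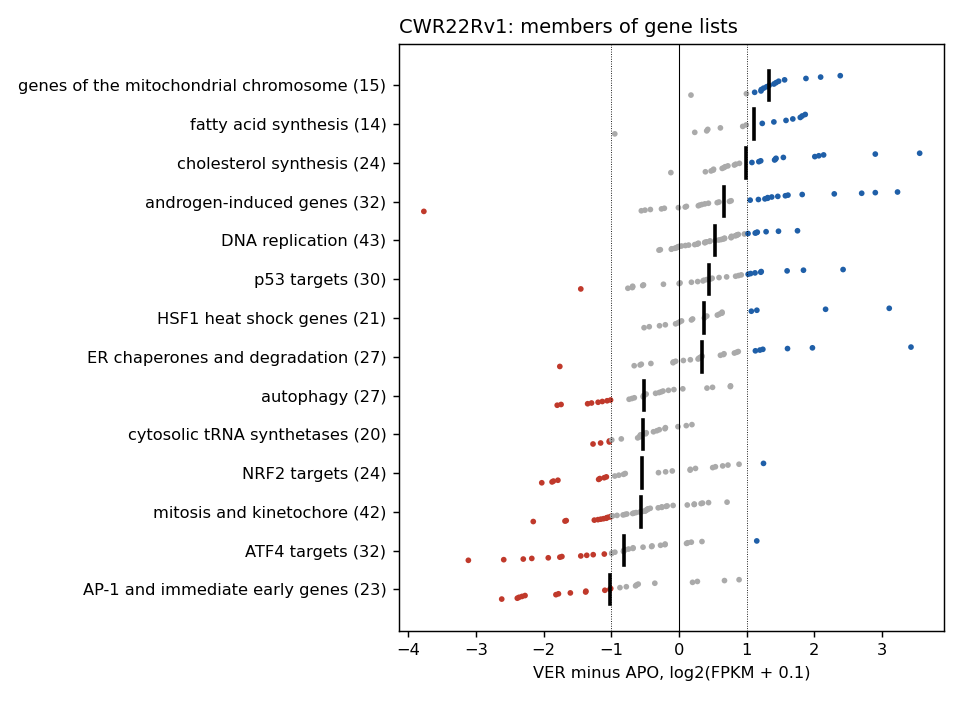
VER minus APO in CWR22Rv1 as log2(FPKM + 0.1) (x axis) for every compared member of 14 gene lists (y axis, number compared in brackets). Points are genes, coloured blue when more than 2-fold higher with VER and red when more than 2-fold higher with APO, the vertical bars are list medians and the dotted lines mark 2-fold. Medians run from 1.33 for the mitochondrial chromosome to -1.02 for AP-1 and immediate early genes.

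Genes of the mitochondrial chromosome, which encode core respiratory chain subunits and the mitochondrial rRNAs, all had positive differences, with a median of 1.33. Past 2-fold, 13 of 15 were higher with VER (86.7%, against 11.2% of all genes). MT-CO1, the catalytic subunit of cytochrome c oxidase, was at 18710 FPKM in DMSO, 4444 with APO and 23187 with VER, a log2 difference of 2.38. MT-CO3 was at 15364, 4075 and 17391 FPKM. MT-RNR1, the small rRNA, was the least apart, at 2128, 2615 and 2959 FPKM. MT-ND6, the subunit encoded on the other strand, was at 219, 46.8 and 109 FPKM. The nuclear pseudogene MTCO1P12, nearly identical to MT-CO1, was at 63.5, 15.3 and 88.8 FPKM, and reads may be divided between the copies.

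Nuclear genes of the respiratory chain did not share the shift: 73 genes had a median of 0.04. Of them, 3 were more than 2-fold higher with VER (4.11%, against 11.2% of all genes). NDUFS1 was the 1 gene more than 2-fold higher with APO (1.37%, against 7.21%), at 57.4 FPKM in DMSO, 78.6 with APO and 34.0 with VER. The 24 genes of mitochondrial transcription and RNA processing had a median of -0.06 and 0 past 2-fold. In C4-2B MDVR cells the mitochondrial chromosome had a median of 0.02, and MT-CO1 was at 6247, 6170 and 6615 FPKM in DMSO, APO and VER. The lower level was thus seen in the CWR22Rv1 APO library and not in the APO library of the other line. Whether it belongs to the treatment or to that library cannot be told apart with 1 library.

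**Figure D4:**
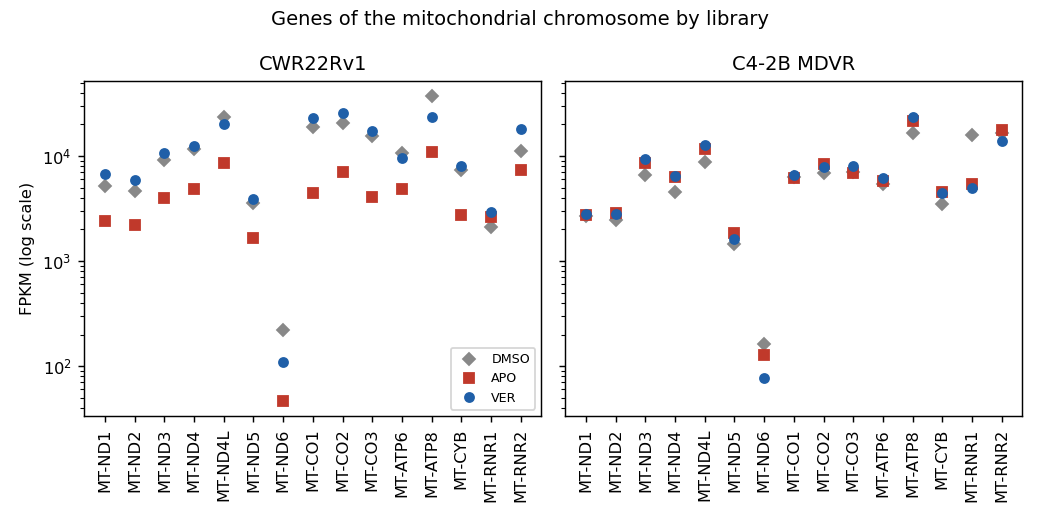
FPKM (y axis, log scale) of the 15 genes of the mitochondrial chromosome (x axis) in the DMSO (grey diamonds), APO (red squares) and VER (blue circles) libraries of each line. In CWR22Rv1 the APO library lies lowest for 14 of the 15 genes, and in C4-2B MDVR the APO and VER points of most genes nearly coincide.

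Cell cycle genes formed 2 groups. The 43 genes of DNA replication had a median of 0.54, with 7 more than 2-fold higher with VER (16.3%, against 11.2% of all genes) and 0 with APO, and all 43 were highest in DMSO. LIG1, DNA ligase, was at 34.2 FPKM in DMSO, 7.85 with APO and 26.7 with VER, a log2 difference of 1.75. MCM4, a subunit of the replicative helicase, was at 114, 25.1 and 69.6 FPKM, a log2 difference of 1.47. PCNA, the sliding clamp, was at 208, 71.1 and 139 FPKM. Of 24 DNA repair genes 6 were more than 2-fold higher with VER (25%, against 11.2%), with a median of 0.42, and FANCD2 was at 36.8, 10.4 and 22.8 FPKM.

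Genes of mitosis had the opposite sign. The 42 genes had a median of -0.56, with 12 more than 2-fold higher with APO (28.6%, against 7.21% of all genes) and 0 with VER (against 11.2%). CDC20, the activator of the anaphase-promoting complex, was at 102 FPKM in DMSO, 115 with APO and 25.8 with VER, a log2 difference of -2.15. PLK1, the mitotic kinase, was at 52.2, 43.0 and 13.5 FPKM, a log2 difference of -1.66. CCNB1, cyclin B1, was at 125, 110 and 50.9 FPKM, and UBE2C, which works with the anaphase-promoting complex, was at 98.2, 88.5 and 44.8 FPKM. MKI67, the proliferation marker, was at 27.4, 8.64 and 10.1 FPKM, low with both. Mitotic genes thus stayed near DMSO with APO in part of the list, while replication genes stayed nearer to DMSO with VER.

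In the C4-2B MDVR line the mitotic genes lay on the same side with larger differences and a median of -2.33. Of the 42, 40 were more than 2-fold higher with APO (against 5.54% of all genes compared). CDC20 there was at 144 FPKM in DMSO, 86.0 with APO and 11.4 with VER. Replication genes were on the other side, with a median of -0.55. Of the 43, 10 were more than 2-fold higher with APO (against 5.54% of all genes) and 0 with VER (against 4.3%). Positive in CWR22Rv1 and negative in C4-2B MDVR were 28 of the 43. DNA repair genes also changed side, with a median of -0.83. Past 2-fold, 10 of 24 were higher with APO (against 5.54% of all genes) and 0 with VER (against 4.3%). Of these 24 genes, 17 were positive in CWR22Rv1 and negative in C4-2B MDVR. The E2F site, searched as TTTCCCGC or TTTGGCGC on both strands, is in 2.31% of all promoters and in 3 of the 5 promoters found for the 7 replication genes higher with VER. The windows of LIG1, of GINS2, a subunit of the replicative helicase, and of E2F1, the factor itself, are at chr19:48170431-48170478, chr16:85688958-85689005 and chr20:33686386-33686425, all on the minus strand, with the site in capitals.
LIG1: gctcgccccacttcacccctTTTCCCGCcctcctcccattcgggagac
GINS2: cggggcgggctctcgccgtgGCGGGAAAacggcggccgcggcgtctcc
E2F1: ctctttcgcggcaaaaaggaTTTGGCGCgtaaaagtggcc
In GINS2 the site is on the other strand. GINS2 was at 23.6, 5.71 and 12.6 FPKM in DMSO, APO and VER, and E2F1 at 46.0, 13.3 and 29.8 FPKM.

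**Figure D5:**
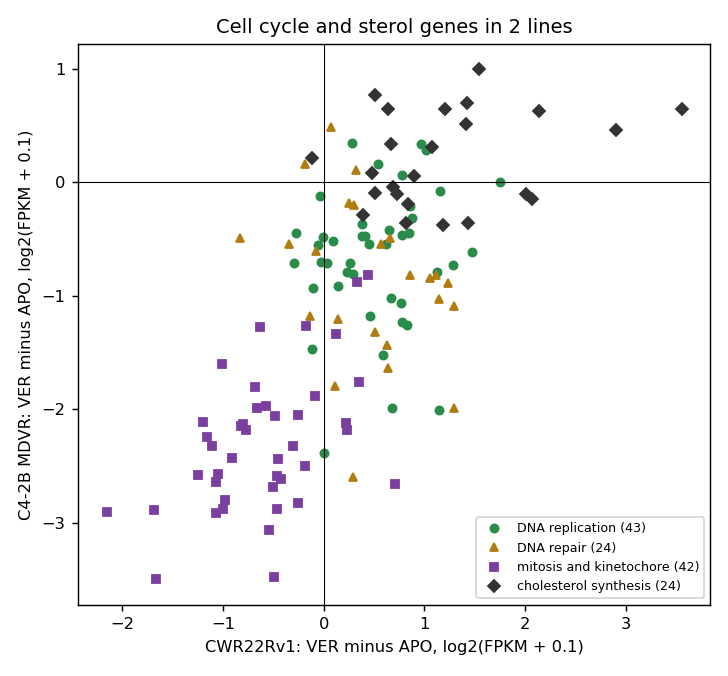
VER minus APO as log2(FPKM + 0.1) in CWR22Rv1 (x axis) and in C4-2B MDVR (y axis) for members of 4 gene lists, with the number of genes in brackets. Mitotic genes lie mostly below 0 on both axes, 28 of 43 replication genes lie at positive x and negative y, and cholesterol genes spread along x while staying near 0 on y.

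Targets of p53, the factor of the DNA damage response, had a median of 0.44. Past 2-fold, 8 of 30 were higher with VER (26.7%, against 11.2% of all genes) and 1 with APO (3.33%, against 7.21%). CDKN1A, the inhibitor p21, was at 41.3 FPKM in DMSO, 172 with APO and 359 with VER, a log2 difference of 1.06. FAS, the death receptor, was at 4.57, 5.47 and 16.8 FPKM, a log2 difference of 1.60, and TP53INP1 was at 9.97, 12 and 43.3 FPKM, a log2 difference of 1.84. MDM2, the ligase that degrades p53, was at 54.0, 83.4 and 149 FPKM and stayed within 2-fold. SESN2, also a target of ATF4, was the exception at 6.25, 57.8 and 21.1 FPKM. In C4-2B MDVR the median was 1.31, with 18 of 30 more than 2-fold higher with VER (against 4.3% of all genes compared).

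Apoptosis regulators had a median of -0.30 over 29 genes. More than 2-fold higher with VER were 4 (13.8%, near the 11.2% of all genes) and with APO 1 (3.45%, against 7.21%). BAX was at 65.2 FPKM in DMSO, 75.8 with APO and 154 with VER, a log2 difference of 1.02. HRK, an activator of apoptosis, was at 0.236, 2.02 and 0.317 FPKM, a log2 difference of -2.34, and passed the filter through the APO library alone. XIAP, an inhibitor of caspases, was at 13.5, 19.1 and 15 FPKM, a log2 difference of -0.35.

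Other lists held genes on both sides. Of 27 interferon-stimulated genes 5 were more than 2-fold higher with VER (18.5%, against 11.2% of all genes) and 6 with APO (22.2%, against 7.21%). BST2, tetherin, was at 16.6 FPKM in DMSO, 7.75 with APO and 29.5 with VER, and ISG20, an exonuclease, at 6.32, 66.0 and 12.4 FPKM. Of the metallothioneins, which bind zinc, MT2A was at 144, 792 and 411 FPKM and MT1X at 71.4, 636 and 250 FPKM, above DMSO with both inhibitors, and the list had a median of -0.19. CYP1A1, the classic target of the aryl hydrocarbon receptor, was at 5.33, 50.8 and 25.2 FPKM, a log2 difference of -1.01, in a list of 9 genes with a median of -0.05. CALCA, the calcitonin gene, was at 2.50, 145 and 45.0 FPKM, a log2 difference of -1.69, and the 10 neuroendocrine genes had a median of 0.46. Among 30 genes of glycolysis and hypoxia, with a median of -0.03, 5 were more than 2-fold higher with VER (16.7%, against 11.2% of all genes), and SLC16A3, a lactate exporter, was at 78.2, 15.6 and 54.6 FPKM.

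Large housekeeping groups had few genes past 2-fold. The 77 cytosolic ribosomal proteins had a median of -0.29 with 0 genes past 2-fold either way, the 38 spliceosome genes a median of 0.00 with 0, and the 36 proteasome genes a median of -0.30 with 1, PSMD7, at 50.9 FPKM in DMSO, 77.5 with APO and 37.7 with VER. PSMD7 moved to -0.98 at a median ratio of 1. The 20 small nucleolar RNA host genes had a median of -0.43, with ZFAS1 at 60.2, 288 and 140 FPKM. The remaining lists had medians within 0.5 of 0: ribosome biogenesis and MYC targets at -0.13, G1 cyclins and CDK inhibitors at -0.10, steroid receptors and prostate transcription factors at -0.31, NF-kB targets and cytokines at 0.31, keratins and junctions at 0.35, and replication-dependent histones at 0.08 with 15 of 32 compared. The histones were spread widely, from -4.27 to 4.28. The members at both extremes, and some others past 2-fold, passed the filter only through the library where they were higher. Past 2-fold were 4 to the VER side (26.7%, against 11.2% of all genes) and 4 to the APO side (26.7%, against 7.21%), and none exceeded 22.5 FPKM with either inhibitor.

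Some genes were listed at 0 in 1 of the libraries and have no fold. MT3, the brain metallothionein, was at 2.60 FPKM in DMSO, listed at 0 with APO and at 2.47 with VER. USP41, a ubiquitin peptidase, was at 25.8 FPKM with APO, listed at 0 with VER and at 0.0724 in DMSO. In C4-2B MDVR cells USP41 was listed at 0 with APO and had its high level with VER, the reverse. The other 8 such protein-coding genes were between 1.01 and 1.83 FPKM in the library that held them.

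Among genes that are not protein coding, AC244669.1 was at 0.396 FPKM in DMSO, 296 with APO and 0.875 with VER. In the C4-2B MDVR line its high library was DMSO, at 133 FPKM, against 1.14 and 0.894. RF02164, whose exonic bases all lie inside PVT1, was at 171 FPKM in DMSO, 35.1 with APO and near 0 with VER. TRGC1, a constant segment of the T cell receptor gamma locus, was at 29, 8.60 and 36.2 FPKM.

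Over all genes, the difference between VER and APO was partly shared between the lines, which have no library in common. Of the 14800 genes, C4-2B MDVR cells had 4.3% more than 2-fold higher with VER and 5.54% with APO. The filter of 1 FPKM was applied in CWR22Rv1 only. Genes at or near 0 in C4-2B MDVR can therefore count as neither, such as CGA, listed at 0 with both inhibitors there. Genes below 1 FPKM there can also count as past 2-fold, such as CHRNA2 at 0.232 FPKM with APO and 0.653 with VER. Of the 1661 genes higher with VER in CWR22Rv1, 263 (15.8%) were so in C4-2B MDVR, 129 (7.77%) were more than 2-fold the other way and 1269 were neither. Of the 1067 genes higher with APO, 199 (18.7%) were so in C4-2B MDVR, 37 (3.47%) were the other way and 831 were neither. As a share of the genes past 2-fold in C4-2B MDVR these overlaps were 41.4% and 24.3%. Across genes the differences in the 2 lines correlated with a Spearman rho of 0.31 (Pearson's r 0.22), given as a description over genes that are not independent.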

How the data were processed

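RNA of CWR22Rv1 and C4-2B MDVR cells treated with DMSO, APO or VER was analysed, 6 libraries in all. The authors deposited 1 FPKM value per Ensembl gene and library, and the submitters' processing notes name HISAT, Cufflinks, Cuffnorm and the build GRCh38. The annotation release is not given in the sources used here. The labels describe a stranded kit with poly-A selection, while the published methods name another kit and a larger RNA input. The files hold no read totals, so the depth is unknown. Among 327 genes with low values, the most frequent ratio of APO to VER was 0.979, in a bin that held 27 genes. This ratio describes the deposited FPKM and does not replace read totals.

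Symbols, coordinates and gene types are those of GENCODE 29, which held 57047 of the 60658 identifiers. Differences used a pseudocount of 0.1, which understates those of low genes, and a filter of 1 FPKM. Values past 2-fold were counted, and a list was set apart when its median exceeded 0.5. The 36 gene lists and 5 marker lists matched 1076 of 1079 entries. The members and lists were chosen with earlier results of these data known.

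Genes were named by rule: the 15 furthest protein-coding genes on each side above 10 FPKM, the 3 furthest and the best-known members of each list, genes that the study measured, protein-coding genes listed at 0 in 1 library, and the 5 furthest non-coding genes on each side. Promoters are from RefSeq (GRCh38.p14). A few genes that the rule names are not reported here. The counting was tested on simulated data. Tables were handled with pandas 2.3.3 and numpy 2.4.6 under Python 3.11.15, correlations with scipy 1.17.1, and plots with matplotlib 3.10.9.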

Additional observations from a re-analysis of the deposited data

Results flagged for a closer look

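In a few results the lines lay on opposite sides. The DNA replication list had a median VER minus APO difference of 0.54 in CWR22Rv1 and -0.55 in C4-2B MDVR, on opposite sides of 0. The value in CWR22Rv1 was 0.36 at the same sum (TPM) and 0.46 above 10 FPKM, no longer past 0.5. Among single genes more than 2-fold apart in opposite directions, XRCC2, a gene of DNA repair, had 1.29 in CWR22Rv1 and -1.09 in C4-2B MDVR, and CLSPN, a mediator of the replication checkpoint, had 1.29 and -1.99. The long non-coding RNA gene CFAP418-AS1 had -4.57 and 1.27, and the pseudogene GOLGA2P7 had -2.69 and 1.28. In C4-2B MDVR CFAP418-AS1 was low, at 0.200 FPKM with APO and 0.623 with VER, both below the filter of 1 FPKM. With 1 library for each condition, none of these differences between the lines was tested.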

How the results depend on the processing

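No list median past 0.5 and no named gene past 2-fold changed sign under the alternatives. The larger side of the comparison did change, from VER to APO, at the same sum (TPM) and at 1.2-fold. Among smaller values, 10 list medians and the gene XBP1 changed sign under at least 1 alternative, such as the HSP70 family from -0.01 to 0.48 without a filter and NF-kB targets from 0.31 to -0.34 with both libraries above 1 FPKM. The next counts are of values, with each list or gene counted again under each alternative. Of the list medians 297 values kept their side of 0.5, 13 newly passed it and 14 no longer did. For the named genes 701 values kept their side of 2-fold, 9 newly passed it and 20 no longer did. The counts of genes higher with VER and with APO, 1661 and 1067, became 1024 and 672 with a pseudocount of 1, 3375 and 2279 without a filter, 917 and 671 with a filter of 1 FPKM in both libraries, and 537 and 405 above 10 FPKM. Protein-coding genes alone gave 1016 for VER. Other limits gave 5048 and 5289 genes at 1.2-fold, 3134 and 2753 at 1.5-fold, and 420 and 235 at 4-fold. The genes past 2-fold in both lines, 263 and 199, became 88 and 80 with a pseudocount of 1, and 71 and 69 above 10 FPKM. Scaling to the same sum (TPM) gave 1288 and 1597 genes, and the VER share moved from 60.9% to 44.6%.

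List medians crossed 0.5 as follows. With a pseudocount of 1, autophagy had -0.48. At a median ratio of 1, tRNA synthetases had -0.48, lysosome 0.54, autophagy -0.47, NRF2 targets -0.49 and neuroendocrine markers 0.51. At the same sum, androgen-induced genes had 0.49, DNA replication 0.36 and small nucleolar RNA host genes -0.61. At the same sum without the mitochondrial chromosome, tRNA synthetases had -0.44, p53 targets 0.53, mitosis -0.47, DNA repair 0.51, lysosome 0.58, autophagy -0.43, NRF2 targets -0.46 and neuroendocrine markers 0.55. With both libraries above 1 FPKM, AHR targets had -0.82. Above 10 FPKM, DNA replication had 0.46, metallothioneins -0.79, AHR targets -1.01, interferon-stimulated genes 0.58 and histones 1.35. With the GC correction, which was chosen after seeing the data, tRNA synthetases had -0.41, p53 targets 0.52, mitosis -0.43 and autophagy -0.41. Filters change the genes in a list, and scaling multiplies whole libraries, so it shifts all lists by about the same amount. The cause of the other moves was not tested.

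HSPA8 and CDKN1A were within 2-fold at the same sum, with log2 differences of 0.97 and 0.88. The files give no read totals, so the precision of low values is unknown. No paired analysis was possible because each condition is 1 library and the labels carry no replicate numbers, and for the same reason no library could be left out.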
